A study of Mus musculus with 2 samples.

Results

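The blood endothelial cells described here are 663 of the 16190 cell barcodes that passed the quality limits in a pair of single-cell RNA-seq libraries from mouse intestine. They were selected on their own measured counts. A barcode counted as a member if it held at least 1000 unique molecular identifiers (UMIs, one per captured transcript), at most 20% of them mitochondrial, with at least 2 UMIs of Pecam1, at least 1 of Cdh5, at least 1 of Flt1 or Plvap, and 0 of Lyve1, Prox1 and Epcam. The study asked whether epithelial loss of the Wnt transcription factor Lef1 alters the surroundings of Apc-driven adenomas. Lamina propria cells that were negative for EpCAM, CD45, Ter119 and DAPI were sorted from C57BL/6 mice whose age the labels give as 11 weeks, while the study's text gives both this and a slightly younger age. The ApcMin library came from mice of genotype ApcMin/+;Lef1 +/+, and the VApcMinL library from ApcMin/+;Lef1 fl/fl;Villin-Cre mice, so both carry the heterozygous Min allele of Apc. Villin-Cre deletes floxed alleles constitutively in the intestinal epithelium, so the endothelial cells themselves are not its intended target, and since the ApcMin library carries no Cre, the effects of the Cre transgene and of the deletion cannot be told apart. Each genotype has 1 library, and how many mice went into it is not given in the sources used here. No test between genotypes was therefore possible. Every interval below is a 95% interval of counting error alone, and none covers the variation between mice.

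Blood vessels of the gut form a continuous tree. Arterial endothelium, patterned by VEGF and Notch signalling, expresses connexins and ephrin-B2. Capillaries below the villus epithelium are fenestrated and exchange water, lipids and solutes, with Plvap forming the diaphragms of their fenestrae. Venules express selectins and other adhesion molecules through which leukocytes leave the blood.

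The label blood endothelial was checked on genes outside the selection rule. All 21 pan-endothelial genes had UMIs in both libraries, and the summed level of the list, in CPM (UMIs of a gene per 1e6 UMIs of the members of that library), was 8781 in ApcMin and 9157 in VApcMinL. Each member held UMIs of this list, at 17.7 to 194 per 10000 UMIs with a median of 109 in ApcMin, and at 8.95 to 210 with a median of 102 in VApcMinL. The receptor-type phosphatase Ptprb, which restrains Tie2 signalling, was found in 98.5% and 97.0% of members, and the TGF-beta coreceptor Eng in 93.4% and 93.9%. The lymphatic marker Ccl21a had 0 UMIs in ApcMin members and 7 in VApcMinL members. The 5 genes of the lymphatic list together were at 129.6 and 101 CPM, with a UMI in 38.7% and 33.8% of members. The highest member held 38.9 and 11.55 UMIs of this list per 10000. In the lymphatic endothelial barcodes defined below, the list was at 17667 and 18306 CPM. Genes of the rule are given as a description only: Pecam1 (GRCm38 chr11:106654217-106750628), the junctional adhesion molecule CD31, was at 1132 and 1273 CPM in ApcMin and VApcMinL, Cdh5 (VE-cadherin) at 781 and 869.8, Flt1 (VEGF receptor 1) at 2316 and 2936, and Plvap at 2087 and 2730. Plvap was found in 90.5% and 92.6% of members.

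Of 7593 ApcMin and 8597 VApcMinL barcodes, 406 and 972 had the Pecam1 UMIs, 185 and 737 also Cdh5, 149 and 622 also Flt1 or Plvap, and 137 and 572 lacked Lyve1 and Prox1. The Epcam condition then removed 0 ApcMin and 46 VApcMinL barcodes, which left 137 and 526 members. Just inside the Pecam1 threshold were 13 and 64 members with exactly 2 UMIs, in which the VEGF receptor Kdr was at 1280 and 1072 CPM, and just outside it 7 and 50 barcodes with 1 UMI and Kdr at 534 and 805 CPM. A median ApcMin member held 5517 UMIs and 2270 genes, and a median VApcMinL member 4422 UMIs and 1844 genes. Members summed to 1033712 and 3211033 UMIs. Only 1 barcode sequence was a member in both libraries. Free RNA differed between the libraries: in empty droplets the hemoglobin gene Hbb-bs was at 39837 CPM in ApcMin and 11608 in VApcMinL, while the enterocyte gene Fabp1 was at 149 and 3745 CPM. Among members Hbb-bs had a UMI in 98.5% of ApcMin and 80.8% of VApcMinL members, and Fabp1 in 1.46% and 54.9%. Among fibroblast barcodes of the same libraries Fabp1 had a UMI in 2.84% and 54.2%, so the shares of members were at the background level. The 3 epithelial list genes with at least 50 UMIs were all at least 2-fold higher in VApcMinL.

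Blood endothelial cells took a larger share of the VApcMinL library. They made up 1.80% (1.52 to 2.13) of ApcMin barcodes and 6.12% (5.62 to 6.65) of VApcMinL barcodes, a ratio of 3.39 (2.81 to 4.12). Lymphatic endothelial barcodes were defined by at least 2 UMIs of Pecam1, at least 1 each of Lyve1 and Prox1, and 0 of Epcam. They were also a larger share of VApcMinL, with 35 barcodes or 0.461% in ApcMin and 120 barcodes or 1.40% in VApcMinL. The ratio was 3.03 (2.06 to 4.55). Of these 2 sets together, blood endothelial cells were thus 79.7% (72.8 to 85.4) in ApcMin and 81.4% (78.2 to 84.3) in VApcMinL. Barcodes with UMIs of only 1 of Lyve1 and Prox1 were in neither set. Above an order-of-magnitude depth limit (4718 UMIs in ApcMin and 6255 in VApcMinL), 83 and 154 members remained and the ratio of shares was 2.33. Without barcodes that held Epcam or Ptprc or were rich in hemoglobin, 4058 ApcMin and 5795 VApcMinL barcodes remained. Of these, 124 and 502 were members, a ratio of shares of 2.835. These are shares of sorted barcodes, so a difference in sorting or dissociation between the preparations cannot be told apart from one in the tissue.

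**Figure D1:**
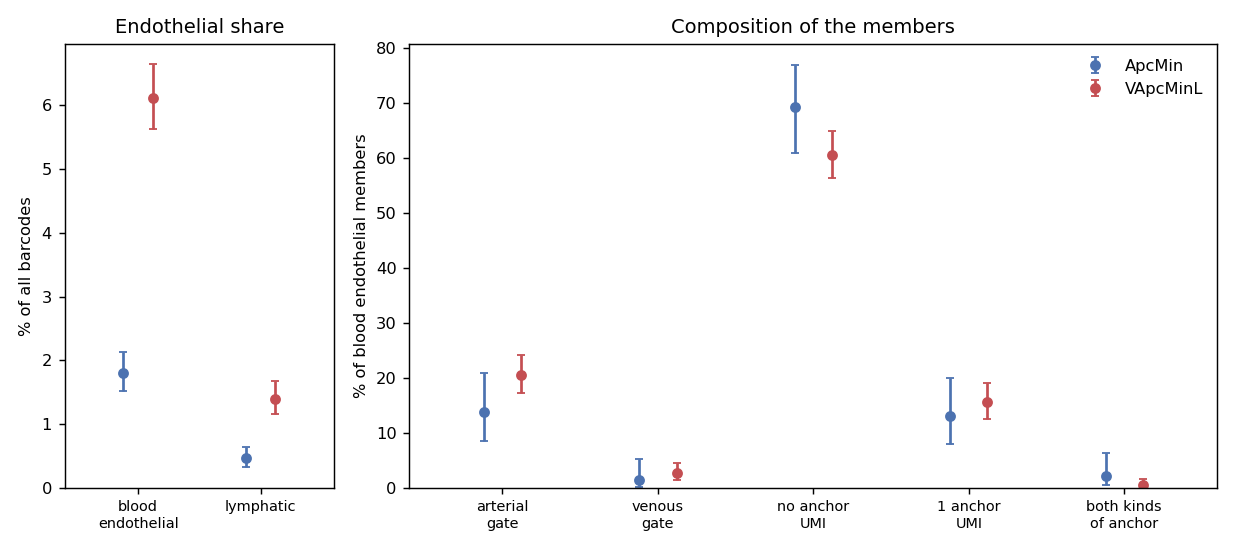
Points show the share of all barcodes that were blood or lymphatic endothelial (left, percent) and the share of blood endothelial members in each range (gate) of arterial and venous anchor UMIs (right, percent) in ApcMin (blue) and VApcMinL (red); bars are exact 95% intervals of counting error in 1 library per genotype. Both endothelial shares are higher in VApcMinL (6.12% against 1.80% and 1.40% against 0.461%), while the intervals of the arterial and venous ranges overlap between the libraries.

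To describe the arterial program, members were divided by 4 arterial anchors (the gap junction genes Gja4 and Gja5, the semaphorin Sema3g and the tyrosine kinase Bmx) and 3 venous anchors (the chemokine scavenger Ackr1, P-selectin Selp and the homing receptor ligand Madcam1). The arterial range held at least 2 arterial and 0 venous anchor UMIs and took in 19 ApcMin and 108 VApcMinL members, 13.9% (8.56 to 20.8) and 20.5% (17.2 to 24.2), a ratio of 1.48 (0.904 to 2.55) whose interval includes equal shares. These are ranges of a count and not cell types: 20 and 81 members had exactly 1 arterial anchor UMI and 6 and 38 exactly 2. Sema3g was found in 22.6% and 27.0% of members, Gja4 in 13.1% and 18.6%, Gja5 in 4.38% and 3.80% and Bmx in 5.84% and 4.56%. After each member was thinned to 1000 UMIs, 2 ApcMin and 30 VApcMinL members were left in the arterial range, a ratio of 3.91 (0.991 to 33.7).

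The arterial range carried an arterial program beyond its anchors. In both libraries together, it was compared with the 414 members that had no anchor UMI. Of 18 arterial program genes, none of them an anchor, 10 were at least 2-fold higher in the arterial range and 0 at least 2-fold lower, with a median log2 ratio of 1.02. Over all 8014 genes with at least 50 UMIs, 3.53% were that much higher and 3.83% that much lower, and the median was 0.06. Endothelin 1 (Edn1), a vasoconstrictor peptide, was at 559.8 CPM in the arterial range and 26.1 CPM in members without anchors in ApcMin, and at 599 and 46.5 CPM in VApcMinL, a ratio of 14.4 (11.7 to 18.0) over both. The Notch ligand Jag1 was at 209.9 against 18.4 CPM in ApcMin and 187 against 34.2 in VApcMinL, a ratio of 6.38 (4.85 to 8.46). Sox17, a transcription factor of arterial fate, was at 397 against 121 CPM in ApcMin and 280 against 141 CPM in VApcMinL. Genes of the list chosen for mention after their values were seen include the elastic fibre gene Fbln5 (ratio 14.3), the tubulin regulator Stmn2 (15.2), the Notch target Hey1 (5.42), the lymphangiogenic ligand Vegfc (4.59) and ephrin-B2 (Efnb2, 2.01). The direction was the same in either library for each of these 8 genes.

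Not all of the list was higher in the arterial range. The tip-cell Notch ligand Dll4 had a ratio of 0.819 (0.673 to 0.993) and the chemokine Cxcl12 one of 0.931 (0.876 to 0.990). Of 11 venous program genes, 2 were at least 2-fold higher in the arterial range and 2 at least 2-fold lower. The higher ones were Nr2f2, with a ratio of 2.50 (0.760 in ApcMin and 2.76 in VApcMinL), and Vwf, with 2.07 (3.80 and 1.76). Of 13 capillary genes, 0 were at least 2-fold higher in the arterial range and 2 at least 2-fold lower. By library, 6 were at least 2-fold lower in the arterial range of ApcMin, with a median log2 ratio of -0.95, and 1 in VApcMinL, with -0.11. Over all 8014 genes, 1119 were that much lower in the arterial range of ApcMin and 372 in that of VApcMinL. The medians over all genes were 0.09 and 0.05. Aqp1, a water channel, was at 93.3 CPM in the arterial range against 669 CPM without anchors in ApcMin and at 303 against 1250 CPM in VApcMinL, a ratio of 0.244 (0.214 to 0.277). The carbonic anhydrase Car4, also chosen after its values were seen, had a ratio of 0.467. The fatty acid transporter Cd36 had one of 1.45 in the opposite direction, 1.09 (0.925 to 1.29) in ApcMin and 1.49 (1.39 to 1.59) in VApcMinL.

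Mural genes were part of the arterial range in 1 library. All 9 pericyte genes were at least 2-fold higher in the arterial range over both libraries. The 19 ApcMin members of that range nevertheless held 0 UMIs of the pericyte genes, Rgs5 included. The 108 VApcMinL members had Rgs5 at 1057 CPM, but only 19.4% of them held a UMI of it. A UMI of any pericyte gene was found in 27.8% of these 108 members. Leaving out members with genes of pericytes, fibroblasts or smooth muscle, or with at least 10% hemoglobin UMIs (19 ApcMin and 70 VApcMinL members, an alternative chosen after seeing the data), left 17 and 88 members in the arterial range. The arterial program then had 10 of 18 genes at least 2-fold higher, 9 of them shared with the count over all members, and the pericyte list 1 of 9. Sox17 went from a ratio of 2.21 to 1.96. The matrix Gla protein Mgp was at 694 CPM in the arterial range and 702 CPM without anchors, a ratio of 0.989, and without those members at 744 and 59.7 CPM, a ratio of 12.5. In fibroblast barcodes Mgp was at 3468 CPM in ApcMin and 5578 CPM in VApcMinL, so it is also an abundant fibroblast transcript.

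**Figure D2:**
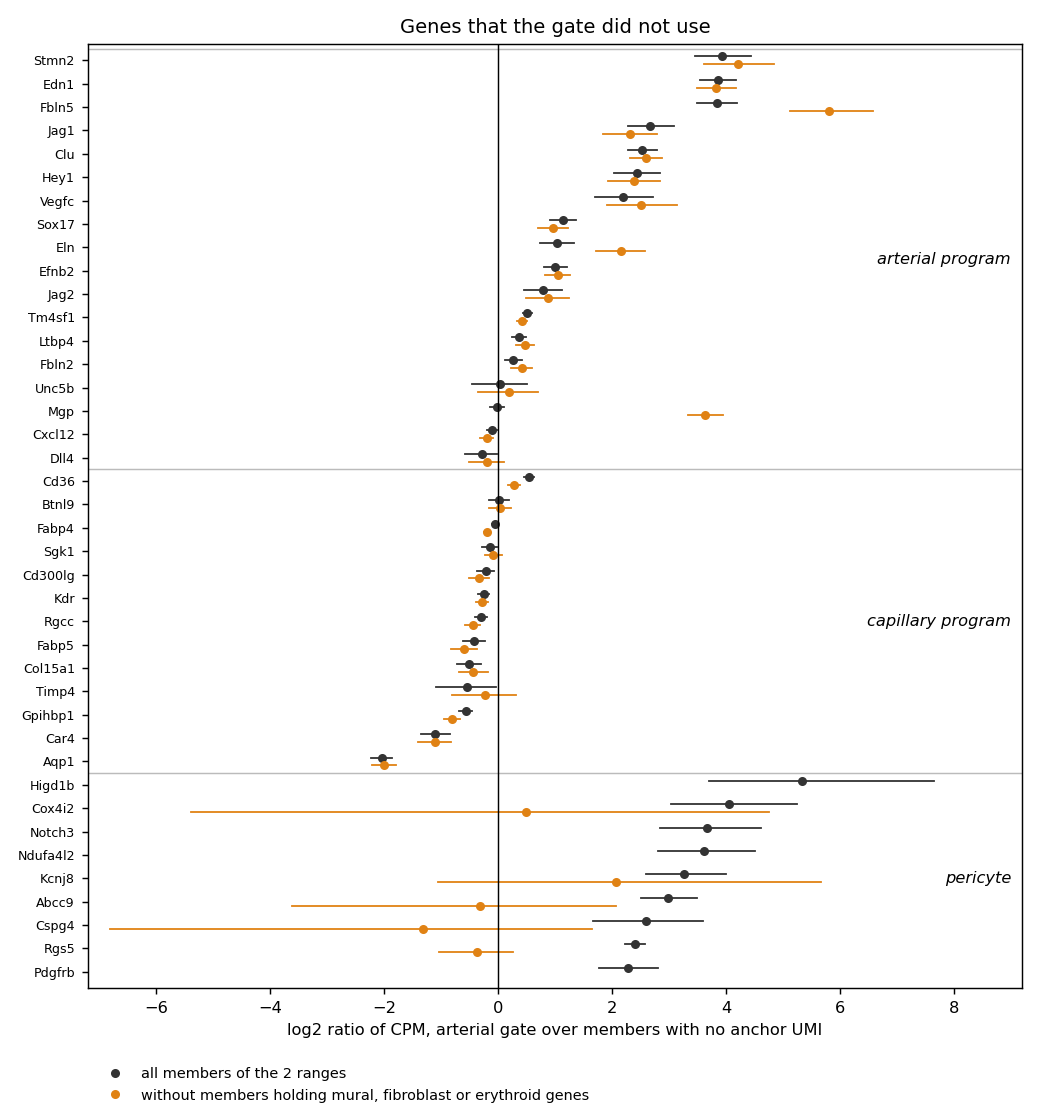
Each point is the log2 ratio of CPM between the arterial range (gate, 127 members) and members with no anchor UMI (414 members) for a gene of the arterial, capillary or pericyte list, with its 95% counting interval; black is all members and orange leaves out members with mural, fibroblast or erythroid genes, and values at 0 UMIs are not drawn. Edn1, Stmn2 and Fbln5 lie near 4 or above under both, Aqp1 near -2 under both, and the pericyte genes lie above 2 in black only, apart from Kcnj8, whose orange interval crosses 0.

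The venous range was small. It held 2 ApcMin members (1.46%, 0.177 to 5.17) and 14 VApcMinL members (2.66%, 1.46 to 4.42), so the ratio of 1.82 (0.419 to 16.5) gives no order. In the 14 VApcMinL members P-selectin, an anchor, had 207 UMIs and was found in all of them. Outside the anchors, the VCAM-1 gene was at 1404 CPM (1174 to 1666), against 39.2 CPM in VApcMinL members without anchors. E-selectin (Sele) was at 504 CPM against 12.3, and Lrg1, a secreted modifier of endothelial TGF-beta signalling, at 954 against 23.5. Von Willebrand factor (Vwf) was at 589 against 57.7 (101 in the arterial range), and Icam1 at 1447 against 546. Aqp1 was also higher there, at 2840 against 1250 CPM, whereas the capillary lipase anchor Gpihbp1 was lower, at 236 against 1190 CPM. The receptor Ephb4, a classical venous gene, did not mark this range, with 7 UMIs in the 14 members, a level with an interval of 30.2 to 155 CPM, against 94.7. The 2 ApcMin members had 15 UMIs of Selp, 8 of Vwf and 0 of Sele, which is too few for a profile.

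Most members were in neither range, and capillary genes were carried by members of every range. The members without an anchor UMI were 95 in ApcMin and 319 in VApcMinL. The summed capillary list was at 16559 and 17212 CPM in them, and at 10921 and 15853 CPM in the arterial range. In the venous range it was at 24661 CPM in 2 ApcMin members and 12474 CPM in 14 VApcMinL members. Over all members the sum was 15539 and 16581 CPM. The median over all members went in the other direction, at 181 UMIs of the list per 10000 in ApcMin and 130 in VApcMinL. Fabp4, a fatty acid chaperone of microvascular endothelium, was found in 97.8% and 96.6% of members, Kdr in 97.8% and 93.2%, and Gpihbp1 in 86.9% and 72.6%. Unsupervised clustering of the 663 members gave 9 groups, which are described by their leading genes and not named as types. In 137 members (cluster 3) Cxcl12, at 3287 CPM in that group, led together with the glucocorticoid-responsive gene Fkbp5, and the capillary list summed to 29110 CPM. A group of 35 (cluster 4) was led by Timp4, Lnx1, Meox2, Cldn5 and Tspan7 and had the largest capillary sum of the 9, 33044 CPM. Its claudin 5, a tight junction protein, was at 843 CPM against 87.5 in the other members. Cluster 3 took 29.9% of ApcMin and 18.25% of VApcMinL members, a ratio of 0.610 (0.419 to 0.902). Cluster 4 took 9.49% and 4.18%, a ratio of 0.441 (0.212 to 0.953). Another 134 members (cluster 5) were led by Kcnk5, Chst2, Gng2, Ccnd1 and Fam174b, and 107 of them had no anchor UMI.

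A group of 112 members (cluster 1) was led by Scgb3a1, Clca3a1, the prostaglandin transporter Slco2a1, Rasa4 and Tspan8. A further 132 (cluster 0) were led by Cxcl9, Cxcl10, H2-Aa, H2-Eb1 and Cd74, and these held 8 of the 16 venous range members. In cluster 0 H2-Eb1 was at 4861 CPM in ApcMin and 202 CPM in VApcMinL members. Of the 591 ApcMin UMIs of H2-Eb1, 514 were in 3 members that also held macrophage genes. A group of 15 (cluster 2) was led by Gm26917, at 9162 CPM against 188 CPM in the other members, with 58.5% of the ApcMin and 41.9% of the VApcMinL UMIs of this gene in 1 member of each library and 1017 and 2015 CPM in empty droplets. It also had Lrg1 and the basement membrane gene Nid2 among its leading genes, the highest tip cell sum of the 9 (3484 CPM) and 5 venous range members. Cluster 6, with 47 members, held 41 of the 127 arterial range members. Its leading genes were nevertheless those of pericytes (Rgs5, Notch3, Kcnj8, Cox4i2) and Myl9, all at 0 UMIs in its 5 ApcMin members, and its arterial anchors summed to 974 CPM. The fibroblast-led group of 35 (cluster 7) and a group of 16 (cluster 8), led by hemoglobin genes and Alas2 at a median of 14677 UMIs, completed the set. In cluster 7, led by Dcn, Gsn, Col1a1, Col3a1 and Dpt, a median member held 15889 UMIs. Whether such members are doublets or carry free RNA was not tested.

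**Figure D3:**
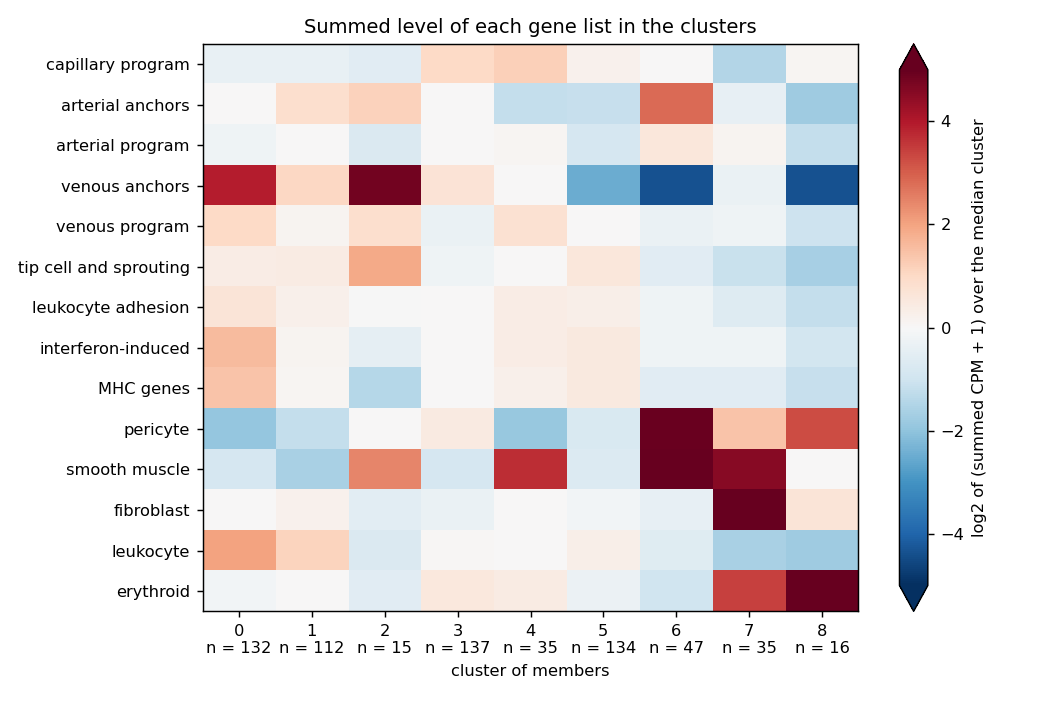
Colours show the summed level of each gene list (rows) in the 9 clusters of members (columns, with the number of members), as log2 of the summed CPM plus 1 over that of the median cluster. The capillary list is highest in clusters 3 and 4 (29110 and 33044 CPM), arterial anchors and pericyte genes in cluster 6, interferon-induced and MHC genes in cluster 0, fibroblast genes in cluster 7 and erythroid genes in cluster 8. A large part of the MHC class II UMIs of cluster 0 lay in 3 ApcMin members.

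Between the libraries, no gene of the pan-endothelial or arterial program lists was past 2-fold. Of the 8014 genes with at least 50 UMIs over all members, 238 (2.97%) were at least 2-fold higher in VApcMinL and 214 (2.67%) at least 2-fold lower, with a median log2 ratio of -0.06. Of 21 pan-endothelial genes, 0 were past 2-fold in either direction, and the same held for 18 arterial program genes, of which 13 had a ratio above 1 and whose median was 0.36. Elastin (Eln) had the largest ratio among the latter, at 72.5 and 133 CPM, a ratio of 1.83 (1.43 to 2.38), and Mgp had the smallest ratio, 0.815. Tm4sf1, a tetraspanin-like protein of endothelial protrusions, was at 1258 and 1827 CPM, a ratio of 1.45 (1.37 to 1.54). Among the arterial anchors Gja4 had a ratio of 2.46 (1.69 to 3.70), Sema3g of 1.89 (1.48 to 2.45) and Gja5 of 1.23 (0.643 to 2.56), while Bmx was lower in VApcMinL at 22.2 and 14.0 CPM, a ratio of 0.630 (0.373 to 1.09).

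The capillary list had 5 of 13 ratios above 1 and a median of -0.09, with 0 genes at least 2-fold lower and 1 at least 2-fold higher. That gene was Timp4, an inhibitor of matrix metalloproteases, at 27.1 CPM in ApcMin and 58.6 CPM in VApcMinL, although it was found in 6.57% of ApcMin and 4.75% of VApcMinL members. Aqp1 was at 665 and 980 CPM, a ratio of 1.48 (1.36 to 1.60), and the fatty acid chaperone Fabp5 at 471 and 335 CPM, a ratio of 0.710 (0.637 to 0.792). In the venous list 2 of 11 genes were past 2-fold, both higher: Lrg1 (25.2 and 50.8 CPM) and Sele (8.71 and 21.8 CPM), the latter with UMIs in 1 ApcMin member or 0.730% and in 3.61% of VApcMinL members. Icam1 was at 328 and 539 CPM, a ratio of 1.65 (1.46 to 1.85), with a UMI in 60.6% and 61.4%. Vcam1 had a ratio of 0.999.

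Npnt had the largest and Gdpd3 the smallest ratio among genes with at least 100 UMIs that were found in at least 10% of the members of the higher library, at 2 or more times their level in its empty droplets, and with at most 20% of its UMIs in 1 member. Without the limit on empty droplets the epithelial gene Fabp1, at a ratio of 72.9, was among those above Npnt. Npnt (GRCm38 chr3:132881745-132950291, minus strand) encodes nephronectin, an extracellular matrix ligand of integrin alpha 8 beta 1. It had 5 UMIs in 2 ApcMin members, 4 of them in 1 member, and 251 UMIs in 143 VApcMinL members, which is 4.84 CPM (1.46%) against 78.2 CPM (27.2%), a ratio of 16.2 (6.83 to 50.2). At 1000 UMIs per member the shares were 0% and 7.03%. In fibroblast barcodes, with medians of 13320 and 10608 UMIs, Npnt was found in 1.40% and 3.08%, in empty droplets it was at 4.70 and 5.04 CPM, and it had 0 UMIs in the lymphatic barcodes of either library. It appeared in all VApcMinL clusters except cluster 4, in 45.2% of the 42 members of cluster 6, 40.6% of the 96 of cluster 3 and 22.2% of the 117 of cluster 0. Npnt lies 1.66 Mb from Lef1 (chr3:131110471-131224356), the floxed gene, on the same chromosome. It was the only 1 of 24 genes within 5 Mb of Lef1 with at least 50 UMIs that was past 2-fold. On the whole chromosome 18 of 419 genes were at least 2-fold higher and 13 lower, beside 2.97% and 2.67% of all 8014 genes. The next gene to Lef1 among the 24, Hadh, named for its position, was at 41.6 and 49.2 CPM.

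Gdpd3 (chr7:126766334-126775649), a lysophospholipase D, showed the reverse pattern. It had 154 UMIs in 49 ApcMin members and 4 UMIs in 4 VApcMinL members, 149 CPM (35.8%) and 1.25 CPM (0.760%), so it was 119.6-fold higher in ApcMin. Every cluster showed it, with 18.8% to 75% of ApcMin members positive and at most 2.08% of VApcMinL members. The difference was present but smaller outside the endothelium, at 5.16% and 1.52% of fibroblast barcodes (8.01 and 1.41 CPM) and at 18.8 and 3.68 CPM in empty droplets. Gm8797, a short predicted gene (chr3:5750806-5751295), was at 123 and 18.7 CPM in members and at 83.4 and 15.7 CPM in fibroblasts, and whether its reads were shared with a near-identical copy is uncertain. Smaller differences that were lower in VApcMinL, each with a ratio of 0.434 to 0.504, were seen for As3mt, Bloc1s1, Zfp467, the acid sphingomyelinase Smpd1, 2310001H17Rik, Dkc1, Gps1 and the Wnt secretion receptor Wls (82.2 and 41.4 CPM). Wls was past 2-fold in 3 of 14 alternatives and reached a log2 ratio of 0.32 in 1 of them, and Gps1 was past 2-fold in 4 of 13.

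Part of the interferon-induced list was higher in VApcMinL, mainly in 1 cluster of members. Of 12 interferon-induced genes, 4 were at least 2-fold higher in VApcMinL and 0 lower, 10 had ratios above 1 and the median was 0.67, beside -0.06 over all genes. The ubiquitin-like Isg15 was at 308 and 813 CPM, a ratio of 2.64 (2.35 to 2.98), and Ifit1, which binds viral RNA, at 181 and 479.6 CPM, a ratio of 2.65 (2.28 to 3.1). The others past 2-fold, Ifit3 at 2.54 and Gbp4 at 2.05, are named after their values were seen. Ifitm3, a membrane protein that restricts viral entry, had a ratio of 1.04. Cxcl10 and Oasl1, also known as interferon-induced, were among the 10 genes with the largest ratios within the limits on detection, empty droplets and single members that are given for Npnt. Cxcl10, a T cell attracting chemokine, was at 134 and 519.5 CPM, a ratio of 3.89 (3.27 to 4.66), and Oasl1 at 15.5 and 48.9 CPM.

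The higher level was seen in cluster 0. Its 15 ApcMin members had the interferon list at 5422 CPM and its 117 VApcMinL members at 15692 CPM, with medians of 97.8 (12.8 to 180) and 159.8 (11.7 to 431) UMIs per 10000. Outside this cluster the list was at 5043 CPM over 122 ApcMin members and 4633 CPM over 409 VApcMinL members. Isg15 was found in 80.0% of ApcMin and 98.3% of VApcMinL members of cluster 0 at 391 and 2936 CPM, and Cxcl10 in 53.3% and 75.2% at 484 and 2807 CPM. Since these genes took part in defining the cluster, its limits and the levels inside it are a description. Fibroblast barcodes of the 2 libraries had Cxcl10 at 185 and 157 CPM, so the higher VApcMinL level was not shared by them. In empty droplets it was at 72.5 and 96.5 CPM.

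Plaur and Noct were also higher in VApcMinL members, in cluster 0 and in most other clusters. Plaur, the urokinase receptor, which localises plasmin at sprouting vessels, was at 61.9 CPM (29.9% of members) and 209 CPM (44.3%), a ratio of 3.38 (2.61 to 4.43). Noct, which encodes nocturnin and is under circadian control, was at 63.9 CPM (23.4%) and 259 CPM (43.9%), a ratio of 4.06 (3.16 to 5.30). In cluster 0 both were found in 82.1% of VApcMinL members, while Plaur was found in 53.3% and Noct in 26.7% of ApcMin members. Noct was also found in 37.5% of VApcMinL and 18.8% of ApcMin members of cluster 1, while in cluster 5 its shares were 40.2% and 44.4%. Its CPM was higher in VApcMinL in every cluster, at 174 in ApcMin and 289.5 in VApcMinL in cluster 5. Plaur was at 30.8 and 199 CPM in cluster 1 and at 123 and 239.5 CPM in cluster 5, but was lower in VApcMinL in clusters 2, 6 and 8. Dissociation and heat shock genes, which tissue digestion can induce, ran beside these: 16 of 17 had ratios above 1 and 0 were past 2-fold, with a median of 0.23. Socs3, a feedback inhibitor of cytokine signalling, had the largest of these ratios, 1.84 (1.62 to 2.11). Their part in the other differences was not tested.

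**Figure D4:**
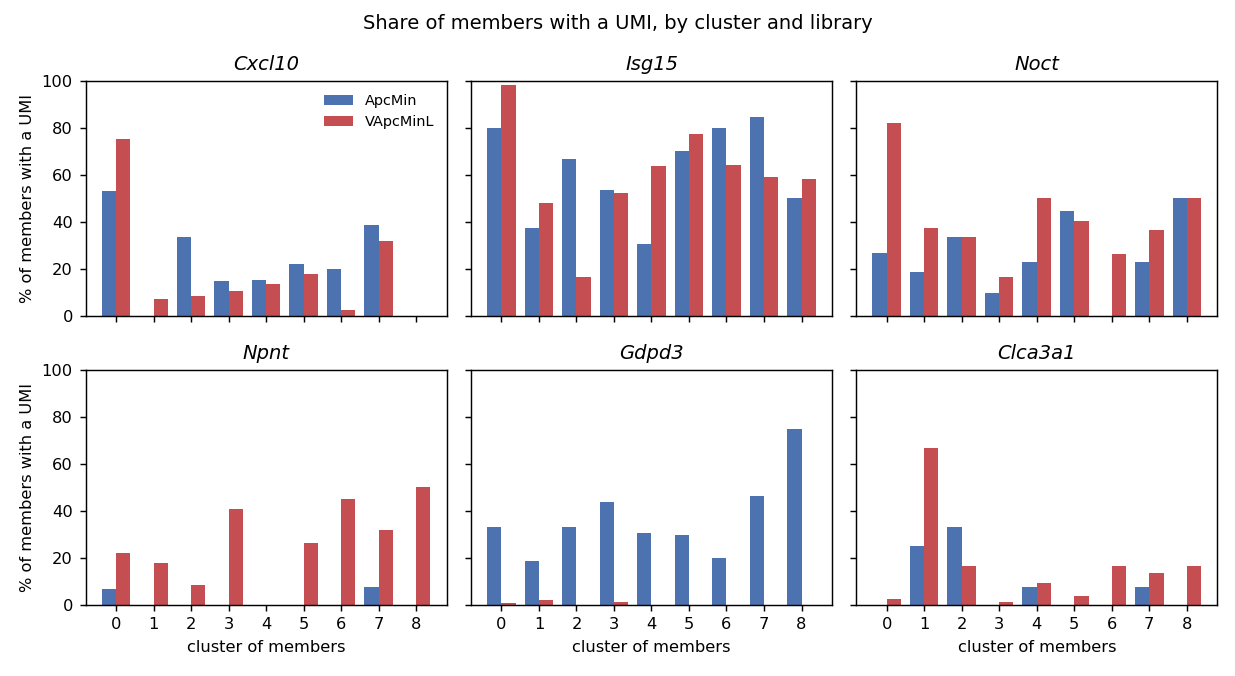
Bars show the percent of members with a UMI of each gene in clusters 0 to 8, for ApcMin (blue) and VApcMinL (red) members. Cxcl10, Isg15 and Noct reach their highest VApcMinL shares in cluster 0 (75.2%, 98.3% and 82.1%), Npnt is spread over 8 of 9 VApcMinL clusters, Gdpd3 over all ApcMin clusters, and Clca3a1 is at 66.7% in VApcMinL cluster 1.

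Clca3a1, Mctp1, Rasa4 and Ankrd37 were the remaining genes among the 10 largest ratios within the same limits, beside the pericyte gene Rgs5. Clca3a1, a chloride channel accessory protein, was at 11.6 and 59.5 CPM, a ratio of 5.12 (2.87 to 10.1), with 5.11% and 16.7% of members positive. Within cluster 1 it was found in 25% of 16 ApcMin and 66.7% of 96 VApcMinL members. The Ras GTPase activator Rasa4 was at 27.1 and 83.8 CPM, the calcium sensor Mctp1 at 21.3 and 89.7 CPM and Ankrd37 at 12.6 and 38.6 CPM.

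MHC class II genes were higher in ApcMin as sums, but not in how many members held them. Of 8 MHC genes, 4 were at least 2-fold lower in VApcMinL, all of class II. The invariant chain Cd74 was at 1471 and 274 CPM, and H2-Eb1 at 572 and 62.3 CPM. However, Cd74 was found in 28.5% and 28.1% of members, and H2-Eb1 in 14.6% and 14.6%. In ApcMin 3 members, all of cluster 0, held 79.6% of the Cd74 UMIs. The same 3 members held 475 of the 492 ApcMin UMIs of Lyz2 and 146 of the 150 of C1qa, both macrophage genes, and the part of these genes in the sums was not tested beyond the filter that follows. Without members holding leukocyte genes (9 in ApcMin and 25 in VApcMinL, an alternative chosen after seeing the data) the direction turned, with log2 ratios of 1.32 for Cd74, 1.11 for H2-Aa and 1.01 for H2-Eb1. Empty droplets held Cd74 at 1673 and 1633 CPM, and 24.3% and 22.7% of fibroblast barcodes had a UMI of it. Of 8 leukocyte genes with at least 50 UMIs, 6 were at least 2-fold lower in VApcMinL and 1 higher. The class I genes H2-K1, H2-D1 and B2m had ratios of 0.987, 1.07 and 1.10.

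A few sprouting and VEGF genes were past 2-fold and higher in VApcMinL, while no Notch pathway gene was past 2-fold. Of 10 tip cell genes with at least 50 UMIs, 3 were past 2-fold, all higher in VApcMinL, beside 2.97% of all 8014 genes. They were Plaur, Pgf and, chosen after its values were seen, the peptide ligand Apln, the last of these at 6 and 48 UMIs. Placental growth factor (Pgf), a ligand of Flt1, had 6 and 66 UMIs, below its level in empty droplets in ApcMin (5.80 against 34.9 CPM). Pgf and Apln were also the 2 genes past 2-fold among 12 VEGF and Tie genes with at least 50 UMIs. For each of these 2 genes the direction turned under an alternative given in a later section. Esm1, a secreted proteoglycan of tip cells, was at 168 and 188 CPM, a ratio of 1.12 (0.943 to 1.33), and Pdgfb, which recruits pericytes, at 196 and 187 CPM. Kdr had a ratio of 0.942, Flt4 of 0.987, Tie1 of 0.989 and Nrp1 of 0.831 (0.775 to 0.891). No Notch pathway gene of 9 was past 2-fold: Notch1 was at 287 and 307 CPM, Dll4 at 129.6 and 173 CPM, a ratio of 1.33 (1.10 to 1.62), and the target Hes1 at 904 and 643 CPM, a ratio of 0.712 (0.659 to 0.770). Of 12 cycling genes only 3 reached 50 UMIs, with 0 past 2-fold, and Pcna, the replication clamp, was at 89.0 and 139 CPM.

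Of 9 Wnt pathway genes with at least 50 UMIs, 0 were past 2-fold. Lef1 itself had 2 UMIs in ApcMin and 8 in VApcMinL members, 1.94 and 2.49 CPM, below its 4.98 and 4.85 CPM in empty droplets, so its deletion could not be checked in these cells. The Norrin receptor Fzd4 was at 268 and 229.5 CPM, its partner Tspan12 at 134 and 127 CPM, and beta-catenin (Ctnnb1) at 359 and 337 CPM. Among angiocrine ligands, which endothelium sends to neighbouring cells, Rspo3, an enhancer of Wnt signalling, was the only 1 of 10 past 2-fold, at 27.1 and 7.79 CPM, a ratio of 0.287 (0.161 to 0.511), from 28 and 25 UMIs. In empty droplets Rspo3 was at 14.7 and 16.5 CPM. Kit ligand (Kitl) was at 527 and 645 CPM.

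In the junction and adhesion lists the lowest ratio was that of Jam3, a junctional adhesion molecule, at 189.6 CPM (58.4% of members) and 103 CPM (35.5%), a ratio of 0.544 (0.454 to 0.652). Claudin 5 had a ratio of 1.13 (0.910 to 1.41), and Esam was at 524 and 527 CPM. The flow-induced factors Klf2 and Klf4 had ratios of 0.852 and 1.05, and the nitric oxide synthase Nos3 one of 1.27 (0.941 to 1.74). In the basement membrane list Col18a1, the source of endostatin, was past 2-fold at 29.0 and 63.2 CPM, with a UMI in 8.76% and 9.12% of members. Collagen IV genes Col4a1 and Col4a2 had ratios of 0.957 and 0.979, and Sparc, a matrix protein that binds collagen, was at 2213 and 1485 CPM.

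Markers of other cell types also differed between the members of the libraries. All 9 pericyte genes were at least 2-fold higher in VApcMinL, with a summed level of 81.3 and 753 CPM, a per-member range of 0 to 20.3 and 0 to 159.7 UMIs per 10000 and, named after their values were seen, Cspg4 and Higd1b at 0 UMIs in ApcMin. A UMI of the pericyte list was found in 16.1% of ApcMin and 20.9% of VApcMinL members, and the median member held 0 in both libraries. The summed smooth muscle list was at 49.3 and 389 CPM, with Myh11 at 3 and 243 UMIs. A UMI of the smooth muscle list was found in 15.3% and 12.55% of members. The summed fibroblast list was lower in VApcMinL, at 6570 and 3099 CPM, with 5 of 8 genes at least 2-fold lower in VApcMinL. Its median over members went in the other direction, at 2.37 UMIs per 10000 in ApcMin and 3.34 in VApcMinL. A UMI of the list was found in 70.8% and 79.3% of members. Without members holding mural, fibroblast or erythroid genes, Col3a1 turned from a log2 ratio of -1.63 to 1.03 and Rgs5 went from 3.45 to 1.62. Of 46 named genes past 2-fold that had a value under this filter, 42 kept their direction and 31 stayed past 2-fold. The log2 ratio was then 3.90 for Npnt, -6.51 for Gdpd3, 2.23 for Cxcl10, 1.43 for Isg15, 1.99 for Noct, 1.84 for Plaur and 2.58 for Clca3a1.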

How the data were processed

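Droplet single-cell RNA-seq was performed on sorted intestinal lamina propria cells, with 1 library per genotype. The authors deposited unfiltered matrices of raw UMI counts per gene and barcode for 31053 genes, with no normalization. The submitters' processing notes name Cell Ranger 2.1.1, Seurat 3.1.1 and mm10/GRCm38, whereas the file headers name Cell Ranger 3.1.0. No deposited cell annotation was used here. Members were picked by the rule given above, and the members, gene lists and ranges were chosen with earlier results of these data known. Groups came from the genotype labels.

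UMIs of members were summed per library and divided by the members' total (CPM). The libraries held 93203061 and 101609269 UMIs in all. With 1 library per genotype no test was made. Intervals (95%) are Clopper-Pearson for shares, Poisson for levels and conditional binomial for ratios, all exact and for counting error only. A library at 0 was set at a floor of 3 counts, and a ratio against it was not printed. A ratio is VApcMinL over ApcMin unless the text says otherwise. Levels in empty droplets came from barcodes ranked 45000 to 90000 by UMIs. Fibroblast barcodes had at least 2 UMIs of Pdgfra, at least 1 of Dcn, and 0 of Pecam1, Cdh5, Epcam and Ptprc.

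Named genes were those of the rule, the 4 with the most UMIs and the largest and smallest ratio of each list, the 5 leading genes of each cluster, Lef1, and the 10 largest and 10 smallest ratios among genes with at least 100 UMIs. The last set was limited to genes found in at least 10% of members of the higher library, at least 2 times their level in its empty droplets, with at most 20% of UMIs in 1 member. Mitochondrial, Xist and Y-linked genes were left out. Members were clustered with scanpy 1.11.5 (2000 variable genes, 20 components, 15 neighbours, Leiden resolution 0.5, no integration). No doublet caller was run. Members with genes of other cell types were left out as an alternative instead. The libraries shared 24 barcodes over the limits, of which 1 was a member in both, and 4 barcodes of members of 1 library occurred among all those of the other. Scripts ran in Python 3.11.15 with numpy 2.4.6, scipy 1.17.1, pandas 2.3.3 and matplotlib 3.10.9, and were tested on simulated data. Gene positions are from GENCODE on GRCm38. Alternatives varied the UMI and mitochondrial limits, the Pecam1 and anchor minimums, depth, scaling, the low-count filter, the denominator and the members left out.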

Additional observations from a re-analysis of the deposited data

How the results depend on the processing

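No paired analysis was possible because only 1 library was made from either genotype. The ratio of blood endothelial shares, 3.39, was 2.33 with order-of-magnitude cells and 19.4 without members holding genes of 1 of 8 other-type lists, a filter that left 15 ApcMin and 329 VApcMinL members because most ApcMin members held hemoglobin genes. The arterial ratio, 1.48, was 3.91 after thinning to 1000 UMIs and 2.78 under that filter. The venous ratio, 1.82, lay between 0.912 and 2.21 and had no value under it. At the minimum of 100 UMIs, 143 genes were at least 2-fold higher and 105 lower. These counts were 238 and 214 at a minimum of 50 UMIs, 78 and 44 at 200 UMIs, 35 and 6 after thinning, and 261 and 67 under the filter of 8 lists. The lower count was 64 without members above the 95th UMI percentile and 42 without members holding mural, fibroblast or erythroid genes.

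Directions of genes past 2-fold that turned are given here as log2 ratios. After thinning Apln was -0.36 and Zfp467 0.38, and with order-of-magnitude cells Scgb3a1 was -0.50. Under the filter of 8 lists Cd74 was 1.95, Col3a1 2.0, Gsn 0.60, H2-Aa 2.60, H2-Eb1 0.37, Notch3 -2.69 and Pgf -0.27, and Wls, just inside 2-fold in the values reported, was 0.32. Without mural, fibroblast or erythroid genes Col3a1 was 1.03, Dpt 0.18, Myh11 -2.27 and Notch3 -1.10. Without leukocyte genes C1qa was 0.66, Cd74 1.32, H2-Aa 1.11 and H2-Eb1 1.01. Npnt, Gdpd3, Gm8797, Clca3a1, Mctp1, Noct, Rasa4 and Rgs5 were past 2-fold in all 14 alternatives for single genes, with Npnt between 1.31 and 6.12 and Gdpd3 between -8.82 and -4.68. Cxcl10 was 0.54 under the filter of 8 lists and past 2-fold in the other 13, and Plaur was 0.88 with order-of-magnitude cells. For 22 genes, 45 values were not given because 1 library was at 0. The cause of these shifts was not tested. The ApcMin side rests on 137 members, and no interval covers variation between mice.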

Other observations

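Haemostatic genes of the members differed little between the libraries. Of 6 coagulation genes with at least 50 UMIs, 0 were past 2-fold. Thrombomodulin (Thbd), the endothelial anticoagulant receptor, was found in 71.5% of ApcMin and 73.4% of VApcMinL members at 369 and 406 CPM. The plasminogen activator gene Plat was at 152 and 141 CPM. The mechanosensitive channel Piezo1 was at 88.0 and 104 CPM, and perlecan (Hspg2), a proteoglycan of the vessel basement membrane, at 438 and 437 CPM. Among lipid and water handling genes 0 of 11 were past 2-fold.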
